A study of Mus musculus with 11 samples.

Results

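The nuclear-encoded subunits of the mitochondrial respiratory chain were examined in mucosa of the mouse (Mus musculus) gastric corpus, sequenced as bulk RNA. Members were taken by symbol from the deposited count table: the Nduf, Sdha to Sdhd, Uqcr, Cox4 to Cox8 and Atp5 genes, without pseudogenes. Of 95 genes with such symbols, 7 with a -ps name and 4 more that GENCODE annotates as processed pseudogenes (Cox6c2, Ndufs6b, Ndufb4c and Ndufa11b) were left out. Grouped by symbol alone, the remaining 84 of the 34866 genes in the table comprised 37 members of complex I, 4 of complex II, 8 of complex III, 18 of complex IV and 17 of complex V. Such a name does not show that a protein is a subunit of that complex. This holds for Ndufa4 and Ndufa4l2 under complex I, Cox7a2l under complex IV and Atp5s under complex V.

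The oxidative phosphorylation system lies in the inner mitochondrial membrane. Complex I takes electrons from NADH and complex II from succinate. Complex III passes them to cytochrome c, complex IV hands them to oxygen, and complex V makes ATP from the resulting proton gradient. Acid-secreting parietal cells of the gastric corpus are packed with mitochondria that supply the proton pump, whereas the enzyme-secreting chief cells are rich in rough endoplasmic reticulum. A few subunits of complex IV exist as pairs of paralogues, of which one is the general form and the other is best known from heart and skeletal muscle or another specialised tissue.

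The series compared wild-type control mucosa (n = 2) with 3 engineered lines made to ablate epithelial cell types: ATP4B-DTR (n = 3), named for the parietal cell gene Atp4b, GIF-DTR (n = 3), named for intrinsic factor (Gif), which mouse chief cells make, and GIF/ATP4B-DTR (n = 3), which carries both. DTR stands for the diphtheria toxin receptor. Age, sex, toxin dose, the time after toxin, any treatment of the controls and the exact promoters that drive the receptor are not stated in the labels used here, and no batch is named. The labels do not say that the samples of a group were separate animals, so the p-values measure the spread between these samples, which may be technical in part; Y-linked expression, given below, differed within ATP4B-DTR.

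Each sample held between 20.7 and 27.9 M estimated counts (M, mega), and levels are given as CPM, counts per mega-count, scaled with TMM factors (trimmed mean of M-values). Parietal markers were abundant in the labelled tissue, with a sum over 15 genes of 23519 to 26578.5 CPM in the controls, 9786 to 11002 in ATP4B-DTR, 13737 to 15751 in GIF-DTR and 7632 to 7893 in GIF/ATP4B-DTR. Of these 15 genes, 8, 5 and 11 were called lower than control in the 3 lines, taken here and below in the order ATP4B-DTR, GIF-DTR, then GIF/ATP4B-DTR, and 0 were called higher. Without the TMM factors, 7, 0 and 10 were lower and 1, 0 and 1 higher. Atp4b was at 4786 and 4365 CPM in the controls, 475, 641 and 683 in ATP4B-DTR, 3470, 2136 and 2784 in GIF-DTR, with 158, 468 and 243 in GIF/ATP4B-DTR. Gif was at 702 and 2303 CPM in the controls, 824, 332 and 755 in ATP4B-DTR, 65.5, 178 and 196 in GIF-DTR, with 218, 83.7 and 72.3 in GIF/ATP4B-DTR. All 8 proliferation markers were called higher in each of the 3 lines. Genes of the Y chromosome were expressed in both controls, ATP4B-DTR 1 and GIF/ATP4B-DTR 1 to 3, and not in ATP4B-DTR 2 and 3 or GIF-DTR 1 to 3. GIF-DTR against control and GIF/ATP4B-DTR against GIF-DTR therefore cannot be told apart from this difference.

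Summed over all 84 members, TMM-scaled levels overlapped between the 4 genotypes. The sum was 20753 and 17297 CPM in the controls, 19858, 20739 and 17728 in ATP4B-DTR, 20365, 16897 and 20512 in GIF-DTR, with 17600, 20177 and 16804 in GIF/ATP4B-DTR. The controls spanned nearly the whole range of the other samples. As a plain share of each library's counts, without the TMM factors, the members took 1.57% ± 0.114 (SD, n = 2) of control libraries, and 2.00% ± 0.0577, 2.05% ± 0.236 and 1.88% ± 0.183 (n = 3 each) of those of the 3 lines. On that scale both controls lay below all 9 samples of the lines, so whether the sum differed depended on the scaling. Complex V gave the largest part of the sum, 7601 ± 1009 CPM (SD, n = 2) in control and 6944 ± 497 (n = 3) in GIF/ATP4B-DTR. Complex II summed to 1331 and 1137 CPM in control and to between 960.1 and 1074 in GIF/ATP4B-DTR, groups that did not overlap with TMM scaling. On library totals they did overlap, at 1061 and 981.6 against 992.8 to 1112. In bulk tissue, fewer cells of a type and less RNA per cell cannot be told apart.

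**Figure D1:**
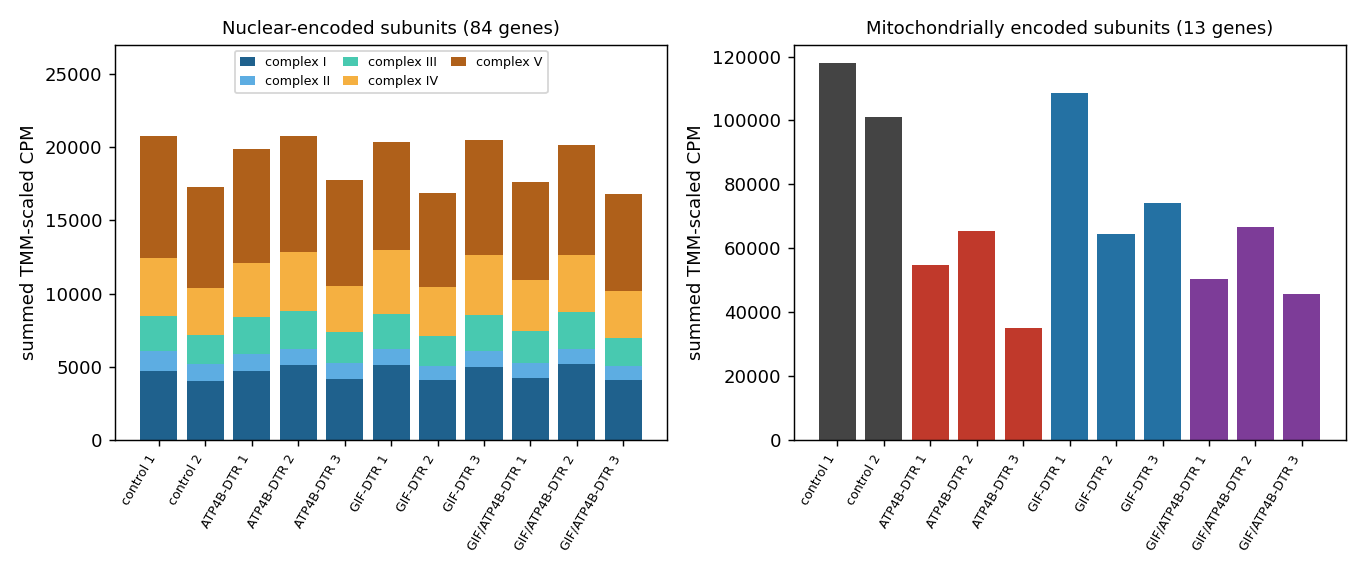
Summed TMM-scaled CPM (vertical axes) of the 84 nuclear-encoded subunits, stacked by complex (left), and of the 13 subunits encoded in mitochondrial DNA (right, bars coloured by genotype), for each of the 11 samples. The nuclear sums lie between 16804 and 20753 CPM with no order by genotype, whereas the mitochondrially encoded sums are highest in the controls and GIF-DTR 1 and lowest in ATP4B-DTR 3.

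Per length of transcript, levels differed by complex as well. The median over members, as mean CPM per kb of the principal transcript over all 11 samples, was 120 in complex I, 136 in complex II, 291 in complex III, 311 in complex IV and 344 in complex V. Atp5b, the catalytic beta subunit of the ATP synthase head, had the highest level per length at 1002 CPM per kb. Cox6a1 followed in complex IV at 776 CPM per kb, Uqcrh in complex III at 539, Ndufa4 at 487 and Sdhd at 272. By CPM without regard to length, the most abundant members of complexes II to V were Sdhd, Uqcrc2, Cox4i1 and Atp5b.

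Only 7 members fell below 3 CPM in any sample, and all 7 were alternative paralogues: Ndufa4l2, Cox4i2, Cox6a2, Cox6b2, Cox7b2, Cox8b and Cox8c. Cox8c, a testis form, had 0 counts in all 11 samples, which allows at most 0.107 to 0.145 counts per mega-count of the unscaled library totals (3 counts, counting error only). Cox6a2 and Cox8b, the heart and muscle partners of Cox6a1 and Cox8a, reached at most 0.513 and 0.142 CPM. Cox7a1 was the exception among these paralogues, with 65.9 and 52.3 CPM in the controls.

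Across the genome, 14889 genes were tested, 80 members among them. Cox6a2, Cox7b2, Cox8b and Cox8c did not pass the filter on low counts. Each line was set against control, and a gene was called when its Benjamini-Hochberg adjusted p from edgeR's quasi-likelihood test was under 0.05. In ATP4B-DTR, 9 of the 80 members were called (5 higher, 4 lower), against 21.6% of all genes tested (12.2% higher, 9.39% lower). In GIF-DTR, 4 were called (3 higher, 1 lower), against 16.8% of all genes (9.97% higher, 6.82% lower). In GIF/ATP4B-DTR, 16 were called (6 higher, 10 lower), against 33.6% of all genes (18.2% higher, 15.4% lower). The members' shares, 11.2%, 5.0% and 20.0%, all lay below the background with TMM scaling. Their median log2 fold changes were 0.07, 0.08 and 0.00, beside −0.01, −0.01 and −0.04 over all genes tested. In GIF/ATP4B-DTR, 63 of the 80 members moved by less than 0.5 on the log2 scale.

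Scaling moved these counts. The controls had TMM factors of 0.797 and 0.864, against 0.947 to 1.12 in the lines. With library totals alone, without these factors, the median of all genes shifted to 0.30, 0.35 and 0.28, and the members called became 29 higher and 1 lower, 38 and 0, and 28 and 3. These were 37.5%, 47.5% and 38.8% of the members, against 29.7%, 28% and 38.7% of all genes called on that scale, so the members' shares no longer lay below the background. The members' median was then 0.09, 0.09 and 0.05 above that of all genes, beside 0.09, 0.09 and 0.04 with TMM. Of the members called lower with TMM, 3 of 4, 1 of 1 and 7 of 10 lost the call on library totals, and of those called higher 0 in each line. With an index of Y-linked expression as covariate, 4 of 5, 3 of 3 and 0 of 6 called higher and 3 of 4, 1 of 1 and 2 of 10 called lower lost it. Single libraries moved them too: in ATP4B-DTR the count fell to 4 without control 1, 2 without control 2, 4 without ATP4B-DTR 1 and 3 without ATP4B-DTR 2. In GIF-DTR it fell to 2 without control 1, 0 without control 2, 2 without GIF-DTR 2 and 1 without GIF-DTR 3, and in GIF/ATP4B-DTR to 10 without control 1, control 2 or GIF/ATP4B-DTR 2.

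**Figure D2:**
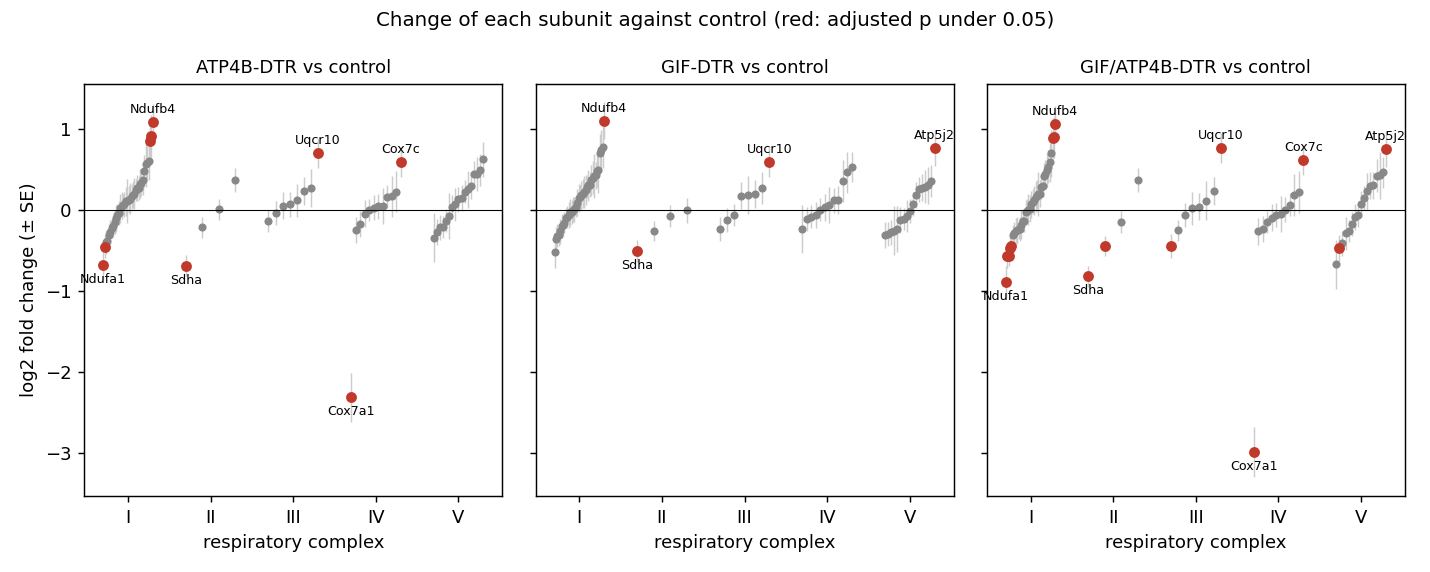
Log2 fold change against control (vertical axis, bars ± SE) of the 77 members above 3 CPM in every sample, ordered within each complex and shown for the 3 lines; red points passed an adjusted p of 0.05 (edgeR). Most members lie within 0.5 of 0 in each line, and Cox7a1 of complex IV lies far below the others in ATP4B-DTR (−2.31) and GIF/ATP4B-DTR (−2.99) and near 0 in GIF-DTR (−0.24).

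The largest change of any well-expressed member was that of Cox7a1, the heart and muscle form of a small complex IV subunit (chr7:30184144-30186078 on the plus strand, GRCm38). Its level was 65.9 and 52.3 CPM in the controls, 10.8, 12.99 and 11.8 in ATP4B-DTR, 61.2, 38.9 and 50.6 in GIF-DTR, with 4.11, 10.4 and 7.73 in GIF/ATP4B-DTR, from 102 to 1468 counts a sample. All 6 samples of the 2 lines with the ATP4B name lay below all 5 others, and GIF-DTR overlapped the controls. Against control, Cox7a1 fell by 2.31 ± 0.30 log2 units (SE; adjusted p = 0.000858) in ATP4B-DTR and by 2.99 ± 0.31 (adjusted p = 0.000107) in GIF/ATP4B-DTR. Among samples with Y-linked expression alone, the call in ATP4B-DTR was lost (adjusted p = 0.0509), while its log2 change stayed between −2.49 and −2.00 over all alternatives. Its change in GIF-DTR was −0.24 ± 0.30 (adjusted p = 0.645).

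Between the lines, Cox7a1 was the only member called. From ATP4B-DTR to GIF-DTR it was higher by 2.08 ± 0.28 log2 units (adjusted p = 0.0103), where 0.49% of all genes were called (0.403% higher, 0.0873% lower). It fell by 2.76 ± 0.29 from GIF-DTR to GIF/ATP4B-DTR (adjusted p = 0.000788), where 2.53% of all genes were called (0.336% higher, 2.19% lower). GIF/ATP4B-DTR and ATP4B-DTR differed in 0 of 80 members and in 0 of 14889 genes by edgeR; 3 members had an unadjusted p under 0.05, and DESeq2's Wald test called 0 members as well. With the Y-linked index as covariate, the calls of GIF-DTR against ATP4B-DTR and against GIF/ATP4B-DTR were lost (highest adjusted p 0.0856 and 0.190 over all alternatives). The first of these was also lost without ATP4B-DTR 1, ATP4B-DTR 2 or GIF-DTR 3, while its log2 difference stayed between 1.91 and 2.23.

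Cox7a2, the general form of the same subunit (chr9:79755361-79759878, minus strand), did not follow Cox7a1. It was at 242 and 187 CPM in the controls, 214, 276 and 177 in ATP4B-DTR, 244, 183 and 246 in GIF-DTR, with 195, 250 and 177 in GIF/ATP4B-DTR, and the 4 groups overlapped. Its log2 changes were 0.05 ± 0.22, 0.06 ± 0.22 and −0.05 ± 0.22 in the 3 lines (edgeR adjusted p = 0.891, 0.886 and 0.879). Per length, there were 45.6 and 47.0 Cox7a1 transcripts for each 100 of Cox7a2 in the controls, 8.49, 7.89 and 11.2 in ATP4B-DTR, 42.1, 35.6 and 34.5 in GIF-DTR, with 3.55, 6.995 and 7.31 in GIF/ATP4B-DTR. By this ratio the 6 samples of the lines with the ATP4B name lay below all others, and the GIF-DTR samples lay below both controls, which their Cox7a1 levels overlapped. Cox7a2l, the related factor that helps to hold complexes III and IV together in supercomplexes, changed by 0.03 ± 0.15, −0.11 ± 0.15 and −0.06 ± 0.15, with edgeR adjusted p-values of 0.913, 0.656 and 0.769.

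As a share of the control mean, Cox7a1 is set here beside Atp4b, a parietal cell gene that the ATP4B lines are named for. It was 18.3%, 22.0% and 20.0% of that mean in ATP4B-DTR where Atp4b was 10.4%, 14.0% and 14.9%, and 6.96%, 17.6% and 13.1% in GIF/ATP4B-DTR where Atp4b was 3.45%, 10.2% and 5.32%. In GIF-DTR it was 104%, 65.7% and 85.6%, with Atp4b at 75.9%, 46.7% and 60.9%. The 15 genes of the parietal list had median log2 changes of −0.68, −0.65 and −2.07 in the 3 lines, with 2, 1 and 1 above 0. Their medians and their sums, given above, were lowest in GIF/ATP4B-DTR and highest in GIF-DTR, as was Atp4b. The medians of ATP4B-DTR and GIF-DTR were close. Markers of vessels had medians of fitted log2 change in the same order over the 3 lines, −1.72, −0.42 and −2.41 for 6 endothelial genes and −1.69, −0.66 and −2.06 for 6 pericyte genes. Of the endothelial genes 0, 0 and 2 were called lower, and of the pericyte genes 0 in each line by edgeR; unadjusted p was under 0.05 for 2, 0 and 4, and for 0, 0 and 1. The controls differed widely in them, with endothelial sums of 19.4 and 107 CPM beside 10.01 to 28.2 in ATP4B-DTR, 28.4 to 74.7 in GIF-DTR and 6.58 to 16.7 in GIF/ATP4B-DTR, and pericyte sums of 18.9 and 162 beside 22.4 to 45.4, 45.3 to 119 and 26.5 to 45.4. Other stromal lists had medians in that order too, −0.71, −0.05 and −1.40 for 7 smooth muscle genes, −0.47, 0.67 and −0.80 for 6 fibroblast genes and −0.00, 1.34 and −0.25 for 9 macrophage genes, with 0 called in any line by edgeR and an unadjusted p under 0.05 for 0, 2 and 1 macrophage genes in the 3 lines and for 0 of the others. The part of parietal cells, vessels or these other cells in the level of Cox7a1 was not tested. Of the markers of striated muscle and fat, other tissues known for Cox7a1, several were at or near 0: Myh6 had 0 counts in all 11 samples, and the highest values of Myh1, Myh2, Mb, Lep and Ucp1 were 0.0878, 0.0828, 0.605, 0.315 and 0.727 CPM. The 10 striated muscle markers summed to 15.4 and 16.9 CPM in the controls, 18.8 to 24.5 in ATP4B-DTR, 17.3 to 24.0 in GIF-DTR and 15.9 to 20.4 in GIF/ATP4B-DTR, most of it Tnni2 and Ckm. Of the 6 of these that were tested, 1 was called higher in both lines with the ATP4B name, the skeletal actin Acta1, which was at 0.135 and 0.166 CPM in the controls and at most 2.58 CPM in any sample, and 0 were called lower. The 5 adipocyte markers summed to at most 4.52 CPM in any sample.

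**Figure D3:**
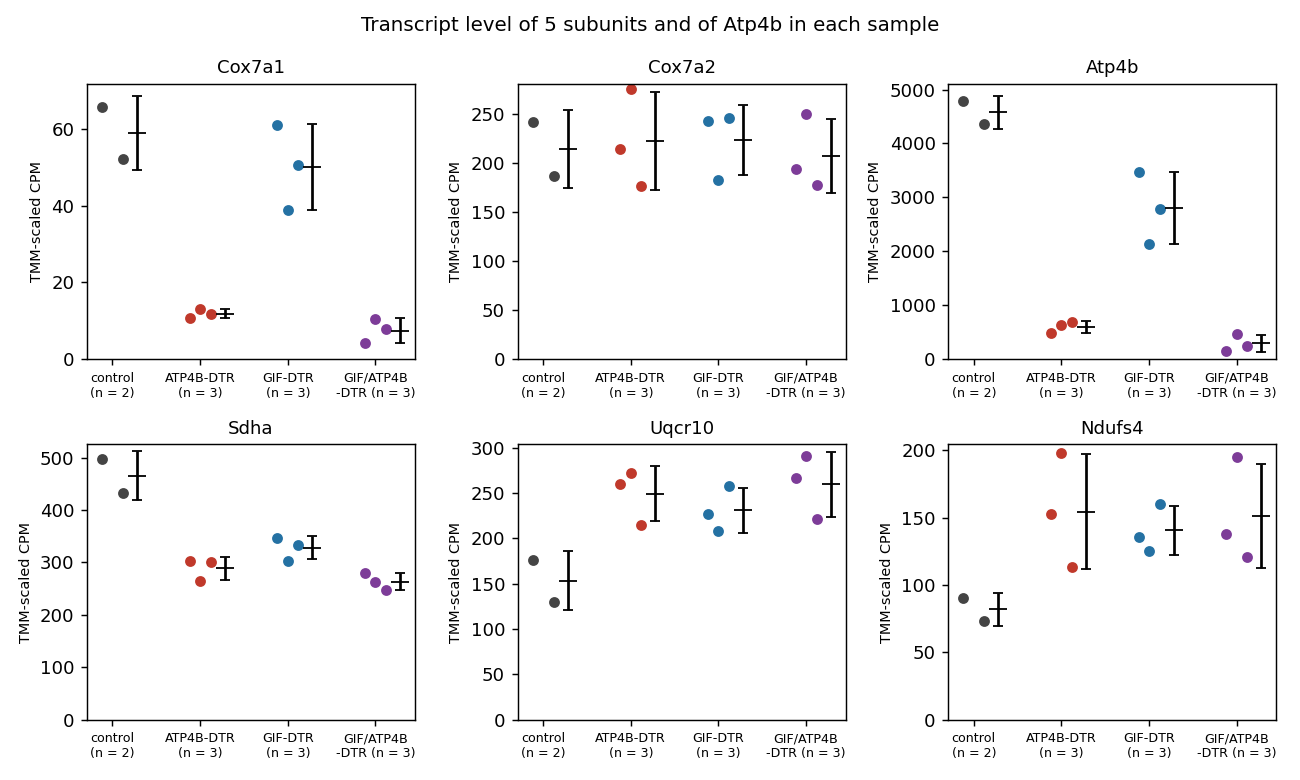
TMM-scaled CPM (vertical axes, from 0) of 5 subunits and the parietal cell gene Atp4b, 1 point per sample, with the group mean and SD beside the points (n = 2 controls, n = 3 for each line). Cox7a1 and Atp4b are low in ATP4B-DTR and GIF/ATP4B-DTR, Cox7a2 overlaps across the groups, Sdha is lower and Uqcr10 and Ndufs4 are higher in all samples of the 3 lines than in the 2 controls.

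The promoters of Cox7a1, Cox7a2, Sdha and Ndufb4 are given next, so that the letters can be compared. Each is a stretch of 120 bases from the RefSeq table for GRCm38.p6, 5′ to 3′ on the strand of the gene, that ends where the GENCODE gene begins. Capitals mark the word GCGCANGCG or its reverse complement, the core of the site bound by the nuclear respiratory factor NRF1, which regulates many respiratory chain genes.

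Cox7a1, chr7:30184024-30184143, plus strand: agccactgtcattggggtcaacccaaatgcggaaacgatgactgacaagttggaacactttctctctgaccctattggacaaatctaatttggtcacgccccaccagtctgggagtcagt

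Cox7a2, chr9:79759879-79759998, minus strand: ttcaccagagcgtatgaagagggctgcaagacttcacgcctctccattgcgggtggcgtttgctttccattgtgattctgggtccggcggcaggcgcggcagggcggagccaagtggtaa

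Sdha, chr13:74350281-74350400, minus strand: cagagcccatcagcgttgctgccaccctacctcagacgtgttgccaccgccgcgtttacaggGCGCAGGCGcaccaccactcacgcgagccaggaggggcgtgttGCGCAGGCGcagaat

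Ndufb4, chr16:37654454-37654573, minus strand: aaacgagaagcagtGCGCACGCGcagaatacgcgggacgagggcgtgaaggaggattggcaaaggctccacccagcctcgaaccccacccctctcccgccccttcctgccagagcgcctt

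The NRF1 word stands at 2 places in the Sdha stretch and at 1 in that of Ndufb4, and on neither strand of the Cox7a1 and Cox7a2 stretches. In the full windows of 250 bases before to 50 after the RefSeq start, Sdha and Ndufb4 had 3 each. The windows of Uqcr10, Ndufa1, Cox7c, Ndufs4, Ndufc2 and Atp5b, called members whose stretches are not printed, had 0. Windows were found for 66 of the 84 members, and 20 of them (30.3%) held the word on either strand, against 7.03% of 27025 genes with a window. AAGATGGCG, the YY1 word, was in 10.6% of members and 1.64% of all genes. For the ETS word CCGGAAGT, bound by GABP, the shares were 7.58% and 4.31%. The short site AAGGTCA of the estrogen-related receptors was in 12.1% and 5.38%, and its longer form TCAAGGTCA, which contains it, in 3.03% and 0.466%. Of the members called in at least 1 line against control that had a window, 1 of 6 called higher and 1 of 10 called lower held the NRF1 word. These matches describe the letters and not occupancy by a factor.

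In complex I, the 7 nuclear-encoded core subunits, which carry the flavin, the iron-sulfur clusters and the quinone site, were called in 0 cases in ATP4B-DTR and GIF-DTR. Where 21.6%, 16.8% and 33.6% of all genes were called in the 3 lines, 1 of the 7 (14.3%) was called in GIF/ATP4B-DTR. This was Ndufv1, which holds the flavin that accepts electrons from NADH: it was at 258 and 210 CPM in the controls, 192, 174 and 174 in ATP4B-DTR, 202, 172 and 192 in GIF-DTR, with 162, 157 and 155 in GIF/ATP4B-DTR. All 9 samples of the lines lay below both controls. Ndufv1 fell by 0.56 ± 0.13 log2 units in GIF/ATP4B-DTR (edgeR adjusted p = 0.00686), a call lost without control 1 and with library totals alone (highest adjusted p 0.167). Ndufv2, its partner in the NADH-oxidising module, went the other way without passing the test, with log2 changes of 0.58 ± 0.21, 0.40 ± 0.21 and 0.49 ± 0.21 and edgeR adjusted p-values of 0.0682, 0.215 and 0.0912. Ndufs1, Ndufs3, Ndufs7 and Ndufs8, further core subunits, had log2 changes between −0.27 and 0.29 in the 3 lines.

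Among the 30 other members grouped under complex I, Ndufa4 and Ndufa4l2 included, 5, 1 and 7 were called in the 3 lines. That is 16.7%, 3.33% and 23.3%, beside 21.6%, 16.8% and 33.6% of all genes. Ndufs4, an accessory subunit needed for a stable NADH module, was 90.7 and 73.5 CPM in the controls, 153, 198 and 113 in ATP4B-DTR, 136, 125 and 161 in GIF-DTR, with 138, 195 and 121 in GIF/ATP4B-DTR. Every sample of the lines exceeded both controls. Its rise was 0.91 ± 0.26 log2 units in ATP4B-DTR (edgeR adjusted p = 0.0265) and 0.88 ± 0.26 in GIF/ATP4B-DTR (0.0205), and its change in GIF-DTR was 0.78 ± 0.25 (0.0591). Ndufc2, of the membrane arm, rose by 0.85 ± 0.26 in ATP4B-DTR and by 0.89 ± 0.26 where both receptors were carried (edgeR adjusted p = 0.0355 and 0.0198), with a change of 0.73 ± 0.25 (0.0713) in GIF-DTR. It was at 66.8 and 58.8 CPM in the controls and at 84.8 to 158 CPM in the 9 samples of the lines, all above both controls. Both calls in ATP4B-DTR were lost without control 1, control 2, ATP4B-DTR 1 or ATP4B-DTR 2 (highest adjusted p 0.169 for Ndufs4 and 0.182 for Ndufc2). In GIF/ATP4B-DTR both were lost without control 2 or GIF/ATP4B-DTR 2, and that of Ndufc2 also without control 1 (highest adjusted p 0.148 and 0.127).

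Ndufb4, another membrane arm subunit, had the largest rise among the called members of complex I in each line. Its counts may be shared with a processed pseudogene. Its level was 22.6 and 19.8 CPM in the controls, 42.6, 54.7 and 37.9 in ATP4B-DTR, 51.2, 37.1 and 48.6 in GIF-DTR, with 37.6, 56.3 and 38.8 in GIF/ATP4B-DTR. The rises were 1.09 ± 0.22, 1.10 ± 0.22 and 1.06 ± 0.22 log2 units, with edgeR adjusted p-values of 0.00651, 0.00884 and 0.00412. The values were fractional in all 11 samples, as were those of the processed pseudogene Ndufb4c, which was at 46.1 ± 3.01 CPM (SD, n = 2) in control and 57.6 ± 13.5 (n = 3) in GIF/ATP4B-DTR. With both added together, the control samples held 63.8 and 70.8 CPM and the lines between 80.4 and 128.7, and the rises were 0.53, 0.64 and 0.60 log2 units with edgeR adjusted p-values of 0.0932, 0.0571 and 0.0450. The call in ATP4B-DTR and in GIF-DTR was then lost, as it was without control 2 (highest adjusted p 0.0932 and 0.182 over all alternatives), so the level of Ndufb4 itself is uncertain.

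Of complex I, 2 members were called lower and 3 higher in ATP4B-DTR, 0 and 1 in GIF-DTR, and 5 and 3 in GIF/ATP4B-DTR. That is 13.5%, 2.7% and 21.6% of its 37 members, below the 21.6%, 16.8% and 33.6% of all genes called. Of all genes, 9.39%, 6.82% and 15.4% were called lower and 12.2%, 9.97% and 18.2% higher. Ndufa1, a short membrane subunit encoded on chromosome X, was at 78.9 and 68.2 CPM in the controls, 51.1, 48.4 and 38.6 in ATP4B-DTR, 63.7, 41.5 and 48.8 in GIF-DTR, with 40.7, 45.0 and 33.6 in GIF/ATP4B-DTR. It fell by 0.68 ± 0.19 log2 units in ATP4B-DTR (edgeR adjusted p = 0.0282) and by 0.89 ± 0.19 in GIF/ATP4B-DTR (0.00472), with −0.52 ± 0.19 (0.0882) in GIF-DTR. The call in GIF/ATP4B-DTR held in all 16 alternatives, among them that with samples of like Y-linked expression. The call in ATP4B-DTR was lost without control 1, control 2, ATP4B-DTR 2 or ATP4B-DTR 3, and with library totals alone. The Y-linked index as covariate and samples with Y-linked expression alone lost it too. The log2 change of Ndufa1 in ATP4B-DTR stayed between −0.78 and −0.37 over all alternatives. Ndufa10 fell by 0.45 ± 0.14 in ATP4B-DTR (edgeR adjusted p = 0.0417) and by 0.58 ± 0.14 in GIF/ATP4B-DTR (0.00945). The call in ATP4B-DTR was lost without any of the 5 samples compared. Library totals alone, no filter on low counts and both Y-linked alternatives lost it too. The call in GIF/ATP4B-DTR was lost without control 1 and with library totals alone. Over all alternatives the log2 changes of Ndufa10 stayed between −0.52 and −0.14 in ATP4B-DTR, and between −0.64 and −0.25 in GIF/ATP4B-DTR. Ndufv3 and Ndufc1 fell in GIF/ATP4B-DTR by 0.47 ± 0.14 and 0.44 ± 0.15 (edgeR adjusted p = 0.0260 and 0.0370). These last calls were lost in 6 and 8 of the 16 alternatives, control 1 or a GIF/ATP4B-DTR sample left out among them (highest adjusted p 0.416 and 0.536).

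Complex II is the only complex made of nuclear-encoded subunits alone, and it doubles as succinate dehydrogenase of the citric acid cycle. Sdha, its catalytic flavoprotein, whose promoter stretch above held the NRF1 word at 2 places, was at 498 and 432 CPM in the controls, 303, 264 and 300 in ATP4B-DTR, 346, 304 and 334 in GIF-DTR, with 279.5, 263 and 247 in GIF/ATP4B-DTR. The 2 controls lay above all 9 samples of the lines. It fell by 0.69 ± 0.13, 0.50 ± 0.13 and 0.82 ± 0.13 log2 units, with edgeR adjusted p-values of 0.00470, 0.0261 and 0.000899. The call in GIF/ATP4B-DTR held in all 16 alternatives. That in ATP4B-DTR was lost with library totals alone, with the Y-linked index as covariate and among samples with Y-linked expression alone (highest adjusted p 0.182), and kept in each leave-one-out fit. That in GIF-DTR was lost in 7 of the 15 alternatives, control 1, control 2, GIF-DTR 2 or GIF-DTR 3 left out among them (highest adjusted p 0.509).

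The other subunits of complex II did not move alike. Sdhb, the iron-sulfur partner of Sdha, was at 233 and 200 CPM in the controls and at 158, 166 and 153 in GIF/ATP4B-DTR. Sdhb fell there by 0.44 ± 0.13 log2 units (edgeR adjusted p = 0.0199). The call was lost with library totals alone, with the 2 groups alone and among samples with Y-linked expression alone. Leaving out control 1 or GIF/ATP4B-DTR 3 lost it too, and the log2 change of Sdhb stayed between −0.55 and −0.12 over all alternatives. Its changes in ATP4B-DTR and GIF-DTR were −0.21 ± 0.13 and −0.26 ± 0.13 (edgeR adjusted p = 0.264 and 0.190). Sdhc, a membrane anchor, changed by 0.01 ± 0.13, −0.08 ± 0.13 and −0.15 ± 0.13 (edgeR adjusted p = 0.982, 0.756 and 0.423). Sdhd, the other anchor, was at 317 and 259 CPM in the controls, 394, 402 and 323 in ATP4B-DTR, 292, 269 and 300 in GIF-DTR, with 378, 398 and 344 in GIF/ATP4B-DTR. Its values in the 2 lines with the ATP4B name exceeded those of the controls and of GIF-DTR, yet its changes of 0.37 ± 0.15, −0.01 ± 0.15 and 0.37 ± 0.15 did not pass (edgeR adjusted p = 0.102, 0.980 and 0.0772).

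In complex III, Uqcr10, a small accessory subunit (chr11:4701973-4704342, minus strand), rose in all 3 lines. Its level was 176 and 130 CPM in the controls, 260, 272 and 215 in ATP4B-DTR, 226, 209 and 258 in GIF-DTR, with 267, 290 and 221 in GIF/ATP4B-DTR. The rises were 0.70 ± 0.18, 0.59 ± 0.18 and 0.76 ± 0.18 log2 units (edgeR adjusted p = 0.0199, 0.0473 and 0.00854). All 3 calls were lost without control 2, that in ATP4B-DTR also without ATP4B-DTR 1 or 2 and that in GIF-DTR without any GIF-DTR sample (highest adjusted p 0.166, 0.271 and 0.0975). Uqcrfs1, the Rieske iron-sulfur protein that takes electrons from the quinol, was 394 and 340 CPM in the controls and 257, 297 and 256 in GIF/ATP4B-DTR. Uqcrfs1 fell there by 0.44 ± 0.15 (edgeR adjusted p = 0.0380). The call was lost with library totals alone, with the 2 groups alone and among samples with Y-linked expression alone. Leaving out control 1, control 2, GIF/ATP4B-DTR 1 or 3 lost it too, and its log2 change stayed between −0.55 and −0.12 over all alternatives. The core proteins Uqcrc1 and Uqcrc2 had log2 changes between −0.25 and 0.07 in the 3 lines, and the other 4 members had changes between 0.02 and 0.27.

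Complex IV had 14 members tested, and beside Cox7a1 only Cox7c was called, so that 14.3%, 0% and 14.3% were called in the 3 lines, beside 21.6%, 16.8% and 33.6% of all genes. This small subunit was at 209 and 177 CPM in the controls, 312, 317 and 241 in ATP4B-DTR, 296, 240 and 301 in GIF-DTR, with 286, 350 and 254 in GIF/ATP4B-DTR. All 9 samples of the lines exceeded both controls. It rose by 0.59 ± 0.19 log2 units in ATP4B-DTR (edgeR adjusted p = 0.0429) and by 0.62 ± 0.19 in GIF/ATP4B-DTR (0.0240), with 0.53 ± 0.19 (0.0721) in GIF-DTR. Both calls were lost without control 2, that in ATP4B-DTR also without control 1, ATP4B-DTR 1 or 2, and that in GIF/ATP4B-DTR without GIF/ATP4B-DTR 2 (highest adjusted p 0.232 and 0.165). The general forms Cox4i1, Cox6a1, Cox6b1, Cox7b and Cox8a had log2 changes between −0.27 and 0.36 in the 3 lines, none of them called.

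Low paralogues of complex IV and of Ndufa4 gave large but imprecise changes. Ndufa4l2, the hypoxia-inducible relative of Ndufa4, was at most 1.09 CPM, and its changes of −1.40 ± 1.11, 1.10 ± 1.01 and −2.18 ± 1.16 on the log2 scale did not pass (edgeR adjusted p = 0.397, 0.505 and 0.169). Cox4i2, the hypoxia and lung form of Cox4i1, was at most 0.568 CPM and changed by −0.83 ± 1.32, 1.49 ± 1.19 and −0.40 ± 1.27 (0.687, 0.436 and 0.825). Cox6b2, a testis form, was 0.0898 and 0.388 CPM in the controls and 0.285 to 0.931 in the lines, with changes of 1.61 ± 0.71, 1.51 ± 0.71 and 0.94 ± 0.71 (0.131, 0.171 and 0.329).

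Complex V, the ATP synthase, had 0, 1 and 2 of its 17 members called in the 3 lines, the last 2 counts being 5.88% and 11.8%, where 21.6%, 16.8% and 33.6% of all genes were called. Atp5j2, the f subunit of the membrane part, was 242 and 189 CPM in the controls, 313, 420 and 266 in ATP4B-DTR, 387, 301 and 408 in GIF-DTR, with 353, 417 and 320 in GIF/ATP4B-DTR. Every sample of the lines exceeded both controls, with rises of 0.76 ± 0.22 log2 units in GIF-DTR and of 0.75 ± 0.22 in GIF/ATP4B-DTR (edgeR adjusted p = 0.0376 and 0.0214) and a change of 0.63 ± 0.22 (0.0634) in ATP4B-DTR. These calls were lost without control 2, and in GIF-DTR also without control 1, GIF-DTR 1 or GIF-DTR 3, in GIF/ATP4B-DTR also without GIF/ATP4B-DTR 2 (highest adjusted p 0.399 and 0.166). Atp5b went down, from 2556 and 2102 CPM in the controls to 1637, 1683 and 1716 in GIF/ATP4B-DTR. Its fall there was 0.47 ± 0.16 (edgeR adjusted p = 0.0418), a call lost without control 1 or any GIF/ATP4B-DTR sample. Library totals alone, no filter on low counts, the 2 groups alone and both Y-linked alternatives lost it too. The log2 change of Atp5b stayed between −0.61 and −0.15 over all alternatives. Atp5a1, the alpha subunit that alternates with Atp5b in the catalytic ring, changed by −0.21 ± 0.15, −0.28 ± 0.15 and −0.41 ± 0.15 (edgeR adjusted p = 0.350, 0.243 and 0.0579). The 3 genes for the c subunit of the rotor ring, Atp5g1, Atp5g2 and Atp5g3, were not called in any line. They had mean levels of 50.5, 14.9 and 766 CPM per kb, so that Atp5g3 was the main form by length, though Atp5g1 and Atp5g2 had fractional counts in all 11 samples.

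Members called higher and lower encode proteins of overlapping size. In GIF/ATP4B-DTR the 6 members called higher encode 63 to 175 residues (median 104), and the 10 called lower encode 70 to 664 (median 318.5), in the principal transcript. Among the 77 members above 3 CPM in every sample, the 56 of under 200 residues had median log2 changes of 0.13, 0.18 and 0.09 in the 3 lines, and the 21 of 200 residues or more had −0.06, −0.19 and −0.25. All genes tested leaned the same way, with medians of 0.23, 0.25 and 0.31 for the 1920 under 200 residues and −0.05, −0.04 and −0.08 for the 12507 others. Across genes, Spearman's rho between coding length and log2 change was −0.30, −0.46 and −0.36 over the 77 members and −0.21, −0.21 and −0.23 over 14427 genes with a principal transcript. Genes are not independent replicates, and the part of length in these changes was not tested.

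**Figure D4:**
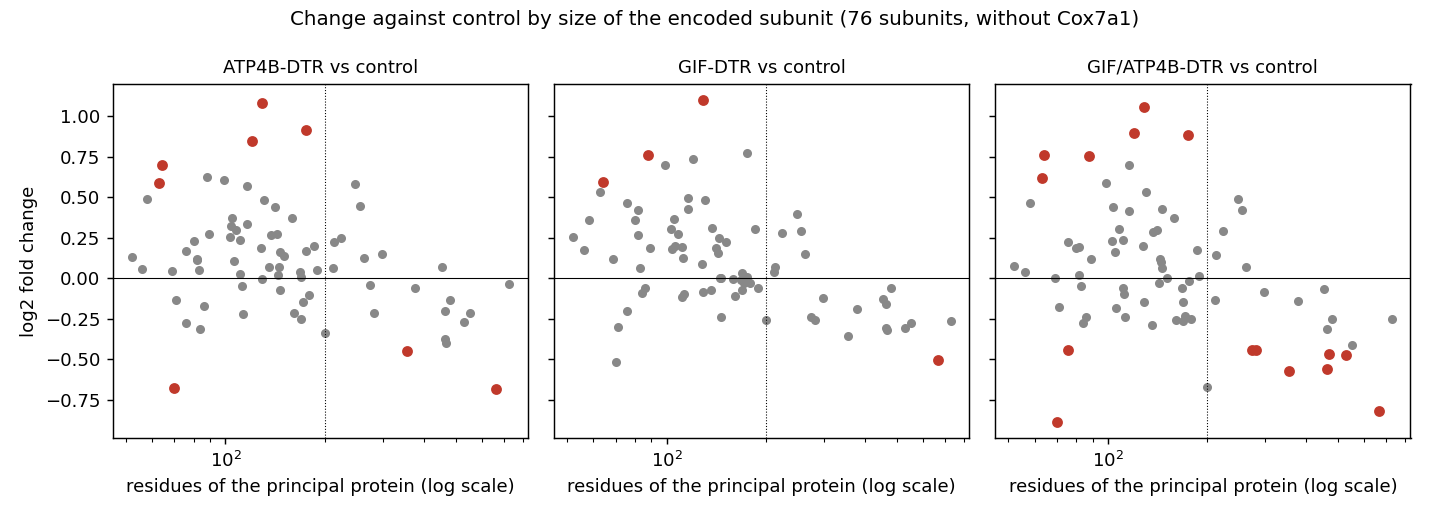
Log2 fold change against control (vertical axis) of the members above 3 CPM in every sample by residues of the encoded principal protein (horizontal axis, log scale), for the 3 lines, without Cox7a1; red points passed an adjusted p of 0.05 (edgeR) and the dotted line marks 200 residues. Called members above 0 all lie left of the line, and in GIF/ATP4B-DTR 7 of the called members below 0 lie right of it.

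Samples of 1 genotype differed in the level of many members at once. Of the 77 members, 76 were higher in control 1 than in control 2, by a median of 0.25 on the log2 scale (0.13 with library totals alone). Most other genes shifted the same way: of 9761 above 3 CPM in every sample, 80.7% were higher in control 1, by a median of 0.20 (0.08 on library totals). Against its mean over all samples, a member was above that mean in 48 and 22 cases of 77 in the controls, 55, 62 and 16 in ATP4B-DTR, 67, 3 and 66 in GIF-DTR, with 20, 51 and 10 in GIF/ATP4B-DTR. Control 2, GIF-DTR 2, ATP4B-DTR 3 and the samples 1 and 3 of GIF/ATP4B-DTR were thus low for most of the chain. Smooth muscle markers summed to 365.2 CPM in control 1 and 2170 in control 2, and the fibroblast markers to 49.3 and 500.1, so the 2 controls also differed in markers of other cells. The part of these cells in the difference between the controls was not tested.

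The 13 subunits of complexes I, III, IV and V that mitochondrial DNA encodes did not stay level with their nuclear partners. They summed to 117839 and 101190 CPM in the controls, 54843, 65408 and 35073 in ATP4B-DTR, 108491, 64543 and 74044 in GIF-DTR, with 50330, 66521 and 45810 in GIF/ATP4B-DTR. The 6 samples of the lines with the ATP4B name lay below both controls, as did GIF-DTR 2 and 3, while GIF-DTR 1 lay between the controls. In ATP4B-DTR, 10 of 13 were called lower and 0 higher (median −1.36), in GIF-DTR 3 lower and 1 higher (median −0.41), and in GIF/ATP4B-DTR 10 lower and 0 higher (median −1.24). On library totals the medians were −1.06, −0.06 and −0.91, with 10, 3 and 9 called lower and 1 higher in each line.

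Among these 13 genes, the largest called fall in all 3 lines was that of mt-Atp8, a small subunit of complex V, at 1474 and 1175 CPM in the controls and 62.3 to 149 CPM in the lines. It fell by 3.61 ± 0.29, 3.22 ± 0.29 and 3.67 ± 0.29 log2 units (edgeR adjusted p = 7.37e-05, 0.000471 and 2.26e-05). In GIF-DTR, mt-Nd3 of complex I rose by 1.21 ± 0.30 (edgeR adjusted p = 0.0210), from 750.3 and 749.8 CPM to between 1588 and 1996, a call lost without control 1, control 2, GIF-DTR 1 or GIF-DTR 3 (up to 0.237). The libraries were poly(A)-selected, mt-Atp8 overlaps mt-Atp6, and its counts were fractional in 4 of 11 samples, so single mitochondrial genes are less certain than the sum.

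A further list held nuclear respiratory chain genes outside the symbol rule: Cyc1, Cycs, Cyct, Ndufab1, Etfa, Etfb, Etfdh, Dhodh and Gpd2. Cyc1 of complex III and Ndufab1 of complex I are subunits, so the members of those complexes above lack them. Of the 8 genes of this list that were tested, 2 were called higher in ATP4B-DTR and 0 in either direction in GIF-DTR. In GIF/ATP4B-DTR, 2 were called higher and 1 lower. That is 25%, 0% and 37.5% of them, beside 21.6%, 16.8% and 33.6% of all genes. With library totals alone, 4, 3 and 5 were called higher and 0 lower in each line, so the 1 lower call was lost. On that scale 29.7%, 28% and 38.7% of all genes were called. Cycs, the cytochrome c that shuttles electrons from complex III to complex IV, had the largest called rise of this list, from 178 and 156 CPM in the controls to 279.2, 413 and 257 in ATP4B-DTR and 287, 467 and 274 in GIF/ATP4B-DTR. The rises were 0.92 ± 0.28 and 1.04 ± 0.28 log2 units (edgeR adjusted p = 0.0363 and 0.0152), on counts that were fractional in all 11 samples. These calls were lost without control 2, and in ATP4B-DTR also without control 1, ATP4B-DTR 1 or 2 (highest adjusted p 0.106 in GIF/ATP4B-DTR and 0.238 in ATP4B-DTR). Etfa, of the flavoprotein that delivers electrons from fatty acid oxidation, fell by 0.40 ± 0.13 in GIF/ATP4B-DTR (edgeR adjusted p = 0.0293, lost without control 1, GIF/ATP4B-DTR 2 or 3, up to 0.652).

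Assembly factors, which build the complexes and are not part of them, had higher medians than the subunits. Of 47 tested, 10 were called higher and 1 lower in ATP4B-DTR (median log2 change 0.34), 7 and 0 in GIF-DTR (0.19), and 17 and 0 in GIF/ATP4B-DTR (0.37), beside the subunits' medians of 0.07, 0.08 and 0.00. Against the background, 12.2%, 9.97% and 18.2% of all genes tested were called higher in these comparisons. Ndufaf6, needed for complex I assembly, had the largest called rise of this list in each line, from 2.74 and 2.66 CPM in the controls to 5.88 to 9.54 in the lines, by 1.45 ± 0.27, 1.33 ± 0.27 and 1.55 ± 0.27 log2 units (edgeR adjusted p = 0.00385, 0.00856 and 0.00141); the call in GIF-DTR was lost without control 1 or control 2 (up to 0.0598). Cox17, a copper chaperone of complex IV, fell by 0.49 ± 0.13 in ATP4B-DTR (edgeR adjusted p = 0.0222), with counts fractional in 9 of 11 samples; the call was lost without control 1 or ATP4B-DTR 3 (up to 0.259). On library totals, 31, 26 and 32 assembly factors were higher and 0 lower. The difference between assembly factors and subunits was not tested.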

How the data were processed

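RNA sequencing of gastric corpus mucosa from 11 mouse samples was deposited as 1 table of estimated counts per gene. Per the labels, poly(A) libraries were made with a stranded kit, and the submitters' processing notes name the build mm10; the aligner and the quantifier are not given in the sources used here. Of the deposited estimated counts above 0, 30.7% were fractional, and all were rounded for testing. Columns left unused numbered 0. Totals per sample ran from 20.7 to 27.9 M, and intervals and floors cover counting error only.

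The members and lists were chosen with earlier results of these data known. Gene types, coordinates and transcript lengths came from GENCODE for GRCm38 and promoters from RefSeq for GRCm38.p6, matched by symbol. TMM scaling, edgeR 4.0.16's own filter on low counts and its robust quasi-likelihood test were run in R 4.3.3 on all 11 samples in 1 fit, with Benjamini-Hochberg adjustment over 14889 genes. The planned test was for counts, and the values proved to be estimated counts, hence the rounding. The script was tested on simulated data. Named genes were the targeted genes, the core subunits of complex I, complex II, paralogue pairs, the most abundant member of each complex, the called members of largest rise and fall in each complex, members called between lines and the called extremes of each other list; further members were named after their values were seen.

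Alternatives were DESeq2 1.42.0 size factors or its Wald test, library totals alone, scaling without the 50 most abundant genes, no robust moderation, no filter or a minimum of 10 counts in each sample, the 2 groups alone, an index of Y-linked expression as covariate, samples of like Y-linked expression, and each replicate left out. Adding Ndufb4c to Ndufb4 was chosen after seeing the data. Results of 1 named gene are not reported here.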

Additional observations from a re-analysis of the deposited data

How the results depend on the processing

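The number of subunits called moved with scaling, with the test, with Y-linked expression and with single libraries, and the cause was not tested. With library totals alone it was 30, 38 and 31 against control, in the order ATP4B-DTR, GIF-DTR, then GIF/ATP4B-DTR, which is 37.5%, 47.5% and 38.8% of the subunits beside 29.7%, 28% and 38.7% of all genes. With the DESeq2 Wald test it was 15 in ATP4B-DTR and 11 in GIF-DTR against control, and 3 in GIF/ATP4B-DTR against GIF-DTR. With the index of Y-linked expression as covariate it was 2, 0 and 14 against control in the same order, 0 in GIF-DTR against ATP4B-DTR and 0 in GIF/ATP4B-DTR against GIF-DTR. Among samples with Y-linked expression only, which leaves fewer samples, it was 0 against control in the first of these lines and 10 in GIF/ATP4B-DTR; no such comparison could be made for GIF-DTR against control or GIF/ATP4B-DTR against GIF-DTR. A lone sample left in a group is assumed to vary like the other groups.

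Leaving out each replicate in turn gave 2 to 10, 0 to 3 and 10 to 13 subunits for the 3 lines against control. Between lines it gave 0 to 1 for GIF-DTR against ATP4B-DTR, 0 to 0 for GIF/ATP4B-DTR against ATP4B-DTR, and for GIF/ATP4B-DTR against GIF-DTR 1 to 1. With Ndufb4c added to Ndufb4 the counts against control were 8, 3 and 16. Of the values of single genes, 4489 kept their side of the threshold, 170 lost a call, 50 gained one and 0 called values changed sign. The 4489 include values that were not called to begin with, so they do not give the share of calls that held. Calls of single members held in as few as 7 of 16 alternatives (Ndufa10 in ATP4B-DTR and Atp5b in GIF/ATP4B-DTR) and in up to 16 of 16. No paired analysis was possible because the labels give the groups no shared replicate numbers.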

Other observations

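Other mitochondrial proteins were taken as a list of 20 genes for import, folding, membrane organisation and transport across the mitochondrial membranes. Of the 20 tested, 11 were called higher and 0 lower in ATP4B-DTR, 6 and 0 in GIF-DTR, and 12 and 2 in GIF/ATP4B-DTR (edgeR, adjusted p under 0.05), where 12.2%, 9.97% and 18.2% of all genes were called higher. Their median log2 changes were 0.61, 0.37 and 0.68, and the difference from the respiratory chain subunits was not tested. With library totals alone these counts were 13 and 0, 11 and 0, and 13 and 0. Hspe1, the mitochondrial co-chaperonin, was at 76.5 and 67.9 CPM in the controls, 183, 168 and 154 in ATP4B-DTR, 142, 118 and 178 in GIF-DTR, and 145, 285 and 199 in GIF/ATP4B-DTR. All 9 samples of the lines exceeded both controls, with rises of 1.22 ± 0.26, 1.02 ± 0.26 and 1.54 ± 0.26 log2 units (edgeR adjusted p = 0.00774, 0.0224 and 0.00131). The calls in ATP4B-DTR and GIF-DTR were lost without control 2, and that in GIF-DTR also without control 1 or GIF-DTR 3 (highest adjusted p 0.0685 and 0.168). Slc25a3, which imports the phosphate used by the ATP synthase, fell by 0.49 ± 0.16 in GIF/ATP4B-DTR (edgeR adjusted p = 0.0321).

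Among 15 regulators of mitochondrial genes, Esrrb, an estrogen-related receptor, had the largest fall in each line. It was at 14.0 and 11.98 CPM in the controls, 0.559, 0.351 and 0.704 in ATP4B-DTR, 7.38, 3.78 and 4.404 in GIF-DTR, and 0.202, 0.599 and 0.392 in GIF/ATP4B-DTR. The samples of the 2 lines with the ATP4B name lay below all others, and GIF-DTR lay between them and the controls. Esrrb fell by 4.58 ± 0.46, 1.32 ± 0.40 and 5.02 ± 0.47 log2 units (edgeR adjusted p = 0.000187, 0.0442 and 4.3e-05). The call in GIF-DTR was lost without control 1, control 2, GIF-DTR 2 or GIF-DTR 3 (up to 0.373). Ppargc1a, a coactivator of mitochondrial biogenesis, was at 24.4 and 25.4 CPM in the controls and 33.9 to 73.7 in the lines, and rose by 1.27 ± 0.32, 1.07 ± 0.31 and 0.98 ± 0.31 (edgeR adjusted p = 0.0173, 0.0410 and 0.0331). Each of these calls was lost without control 1 or control 2 (highest adjusted p 0.0914, 0.211 and 0.130). Over the list, 2 regulators were higher and 2 lower in ATP4B-DTR, 2 and 4 in GIF-DTR and 4 and 3 in GIF/ATP4B-DTR, or 26.7%, 40% and 46.7% called beside 21.6%, 16.8% and 33.6% of all genes. With library totals alone the counts were 7 and 1, 7 and 0, and 8 and 3, where 29.7%, 28% and 38.7% of all genes were called.

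Of 17 glycolytic genes, 0 were called higher and 6 lower in ATP4B-DTR, 0 and 2 in GIF-DTR, and 1 and 6 in GIF/ATP4B-DTR, where 9.39%, 6.82% and 15.4% of all genes were called lower. With library totals alone these counts turned to 5 and 2, 2 and 0, and 4 and 4. Ldhb, the heart-type lactate dehydrogenase, was 384 and 353 CPM in the controls, 158, 135 and 178 in ATP4B-DTR, 297, 198 and 260 in GIF-DTR, and 94.5, 134 and 82.5 in GIF/ATP4B-DTR. It fell by 1.23 ± 0.22 log2 units in ATP4B-DTR and by 1.83 ± 0.22 in GIF/ATP4B-DTR (edgeR adjusted p = 0.00318 and 0.000186), with −0.55 ± 0.22 (0.110) in GIF-DTR, and its sign was the same in every alternative.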
